A study of Mus musculus with 42 samples.

Results

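Tumours of mice dosed with BXCL701 were compared between harvests at 16 h and at 1 h. The comparison held 9 tumours at 16 h and 9 tumours at 1 h, 18 of the 42 sequenced tumours, chosen by the treatment, day and hour in their labels, with 3 tumours at each hour on days 1, 7 and 14. The tumours grew from Pan02 cells, a mouse pancreatic adenocarcinoma line, injected under the skin of the flank of wild-type C57BL/6 mice, and each library came from a different animal. All 18 mice received BXCL701 at 20 ug per mouse by oral gavage, as a single dose in the day 1 groups and daily for 7 or 14 days in the others. The study also held vehicle tumours (PBS) at 0 h on days 1, 7 and 14, BXCL701 tumours at 0 h on days 7 and 14, and BXCL701 tumours at 8 h on all 3 days, with 3 tumours in each group. The sources used here give neither the ages of the animals nor the clock times of dosing and harvest. All vehicle tumours among the 42 were harvested at 0 h. The drug, the time since dosing and the time of day therefore cannot be told apart. In these bulk samples, fewer cells of a type and less RNA per cell cannot be told apart either.

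BXCL701, also called talabostat, inhibits serine proteases that remove dipeptides ending in proline, among them DPP4, DPP8, DPP9 and fibroblast activation protein. Inhibition of DPP8 and DPP9 is known to activate inflammasomes of the NLRP1 family and, in mice, to raise serum cytokines. Immediate early genes are transcribed within minutes of a growth factor, cytokine or stress signal, without new protein synthesis, and most of their transcripts are short-lived. Genes of the circadian clock, and genes induced by glucocorticoid hormone, which itself cycles over the day, also change with the hour of harvest in many tissues.

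The summed gene values lay between 20760528 and 22131093 per library at 16 h and between 20415669 and 22751294 at 1 h. They are scaled values, so the read depth of the libraries is unknown. Pearson correlations between pairs of the 18 libraries on the log2 scale ran from 0.882 to 0.981, so no pair was near-identical. Of 10 genes that mark normal pancreatic acinar cells only Cela1 passed the filter on low values, and none of the other 9 exceeded a value of 6.40 in any of the 18 libraries, so these defining markers were at or near 0. The summed value of 10 carcinoma epithelium genes was 29600 to 46900 at 16 h and 21600 to 52700 at 1 h. Transcripts of skeletal muscle fibres varied widely between tumours. The summed value of 14 muscle genes was 165 to 57000 at 16 h, with a median of 4500, and 1300 to 319000 at 1 h, with a median of 23400. The 3 highest sums belonged to day 14 1 h replicate 1, day 7 16 h replicate 3 and day 7 1 h replicate 2.

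Among 16613 genes tested, 16 rose and 3 fell between 1 h and 16 h at an adjusted p under 0.05, with the 3 days given equal weight. The genes that rose were Egr1, Fos, Btg2, Hes1, Ier2, Nr4a1, Foxc2, Artn, Junb, Bhlhe40, Egr2, Epha2, Lif, Il1b, Arrdc3 and Arl4c, and those that fell were Tsc22d3, Per1 and Sla. Immediate early genes made up 7 of the 16 that rose. Both Tsc22d3 and Per1 are known glucocorticoid-induced genes, and Per1 also belongs to the core clock. The called genes were 0.114% of those tested, 0.0963% in the upward and 0.0181% in the downward direction. The unadjusted p was under 0.05 for 1104 genes. All 19 called genes had the same direction on each of the 3 days. They were called on the mean of these same 3 differences, so this is not separate support. In 7 of the 19 the 9 tumours at 16 h and the 9 at 1 h did not overlap, which over all tested genes was so for 0.0602% with 16 h higher and 0.012% with 16 h lower. Differences are given on the log2(value + 1) scale as 16 h minus 1 h with the standard error (SE) of the fit, and adjusted p-values come from limma with Benjamini-Hochberg adjustment over all tested genes. The median difference over all tested genes was 0.02.

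**Figure D1:**
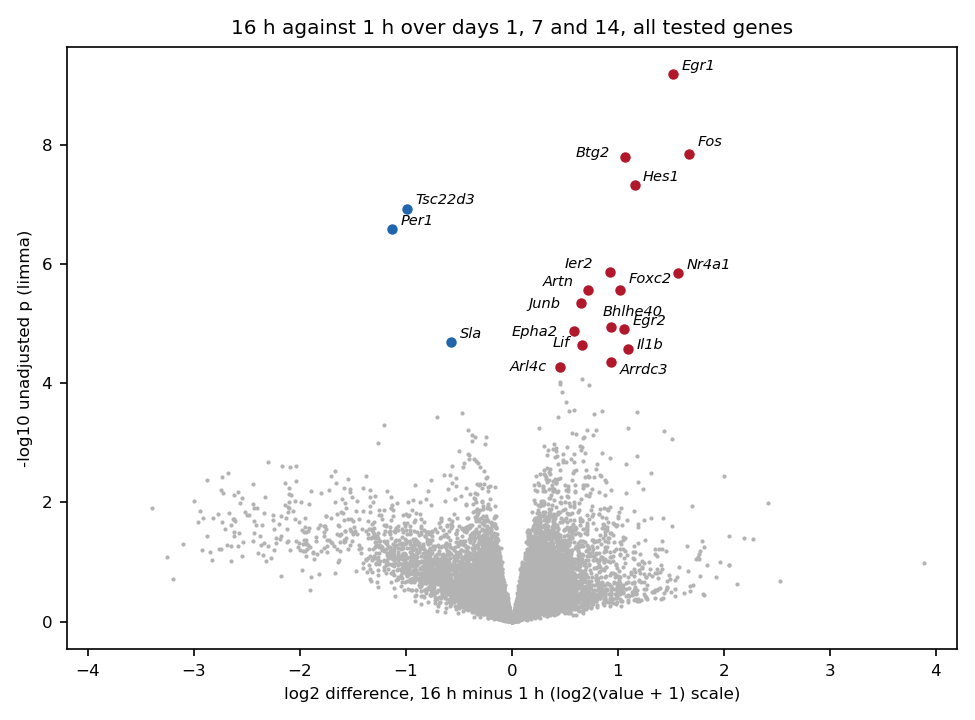
Each point is 1 of 16613 tested genes, placed by its log2 difference between 16 h and 1 h over the 3 days (horizontal) and the -log10 of its unadjusted limma p (vertical). Red points are the 16 genes that rose and blue points the 3 that fell at an adjusted p under 0.05, with Egr1 highest on the plot, while the grey points with the widest differences on the left lie lower.

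Egr1 (ENSMUSG00000038418, GRCm38 chromosome 18, 34859823 to 34864984), a zinc finger transcription factor of the immediate early class, lay at 11.89 to 13.26 at 16 h, with a median of 12.37, and at 10.52 to 11.40 at 1 h, with a median of 10.89, on the log2(value + 1) scale. Every tumour at 16 h was above every tumour at 1 h. The mean difference was 1.52 ± 0.17 (SE, 9 against 9 tumours), or 2.87-fold, with an adjusted p of 1.1e-05 by limma. Fos (ENSMUSG00000021250, chromosome 12, 85473890 to 85477273), which pairs with JUN proteins in the AP-1 transcription factor, had levels of 9.61 to 11.40 at 16 h (median 10.24) and 8.30 to 9.0 at 1 h (median 8.68). Here too the hours did not overlap, and the spread over tumours was wider at 16 h (SD 0.53) than at 1 h (SD 0.20). Fos had the widest difference among the called genes, 1.67 ± 0.22, or 3.18-fold, with an adjusted p of 8.88e-05 in limma.

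Btg2, an antiproliferative early response gene, stood at 10.27 to 11.55 at 16 h (median 10.45) and at 9.28 to 9.95 at 1 h (median 9.53). Ier2, a nuclear protein of the early response class, stood at 10.80 to 11.75 at 16 h (median 11.02) and at 9.57 to 10.64 at 1 h (median 10.01). In neither gene did the hours overlap. The differences were 1.07 ± 0.14 for Btg2 (2.10-fold, limma adjusted p = 8.88e-05) and 0.93 ± 0.16 for Ier2 (1.90-fold, limma adjusted p = 0.00295).

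Nr4a1, an orphan nuclear receptor induced by many acute signals, ranged from 9.59 to 12.09 at 16 h (median 11.05) and from 8.87 to 10.10 at 1 h (median 9.39). It varied most of the called genes at 16 h (SD 0.86). The lowest tumours at 16 h, day 1 replicate 3 at 9.59 and day 7 replicate 3 at 10.08, lay within the range at 1 h. Its difference was 1.57 ± 0.26, or 2.97-fold, with a limma adjusted p of 0.00295. Egr2, a relative of Egr1, went from 8.14 to 9.65 at 16 h (median 8.91) and from 7.41 to 8.71 at 1 h (median 7.86), and 2 tumours at 16 h (8.14 and 8.46) lay below the highest at 1 h. Junb, another AP-1 subunit, lay at 12.67 to 13.46 at 16 h (median 12.94) and at 11.96 to 12.67 at 1 h (median 12.23), so the hours met at the end of their ranges. The differences were 1.06 ± 0.20 for Egr2 (limma adjusted p = 0.0159) and 0.65 ± 0.12 for Junb (limma adjusted p = 0.00693).

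The immediate early list held 19 tested genes, of which 7 rose, 0 fell and 12 did not pass. Of all tested genes 0.0963% rose and 0.0181% fell. Of the 19, 16 lay above 0, against 54.6% of all tested genes. The median difference was 0.67, against 0.02 over all tested genes. The list was drawn up with earlier results of these tumours known, so its count describes these samples. Among the 12 that did not pass, the mRNA decay factor Zfp36 had a difference of 0.54 ± 0.13 (limma adjusted p = 0.172), Egr3 of 1.44 ± 0.38 (limma adjusted p = 0.264), the MAP kinase phosphatase Dusp1 of 0.68 ± 0.18 (limma adjusted p = 0.286) and the ERK phosphatase Dusp6 of 0.67 ± 0.20 (limma adjusted p = 0.415). Of the other AP-1 subunits, Jun had a difference of 0.02 ± 0.14, Jund of -0.22 ± 0.17, Fosb of -0.11 ± 0.28, and Fosl1 and Fosl2 of 0.39 each, none of which passed. Differences between the subunits were not tested. Atf3, a stress-induced member of the same class, had a difference of -0.31 ± 0.20 and did not pass.

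**Figure D2:**
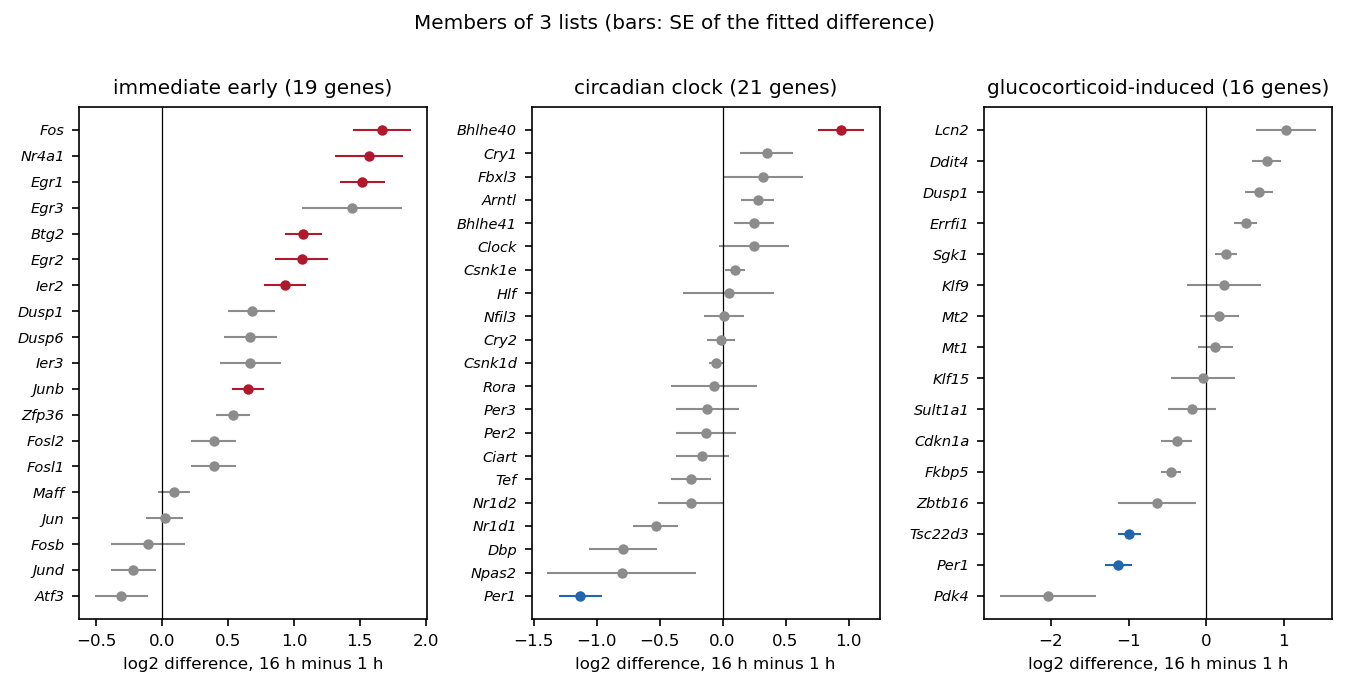
Log2 difference between 16 h and 1 h (horizontal, 9 against 9 tumours) for the tested members of the immediate early, circadian clock (1 gene left out) and glucocorticoid-induced lists, with bars for the SE of the fitted difference. Red and blue points passed an adjusted p under 0.05 and grey points did not: 7 immediate early genes lie to the right in red, and Per1 and Tsc22d3 lie to the left in blue.

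Promoter sequence was looked at for the called genes, since many immediate early promoters are known to carry cyclic AMP response elements (CREs) or CArG boxes, the sites of CREB and of serum response factor, and clock genes carry E-boxes. RefSeq promoter windows on GRCm38.p6, from 250 bases before to 50 after each annotated start, were held for 13 of the 19 genes, 22 windows in all. Those for Egr1, Hes1, Ier2, Bhlhe40, Foxc2 and Sla were not used here. The 250 bases before the start are shown for 4 genes of the early response class (Btg2, Fos, Nr4a1 and Egr2), for Epha2, which shares the full CRE with Btg2, and for Per1 as a gene that fell. They run 5′ to 3′ along the gene's strand, and capitals mark matches on either strand to the CRE (TGACGTCA), its core (TGACG, or CGTCA on the other strand), the CArG box or the E-box (CACGTG).
Btg2 (chr1:134079156-134079405, minus strand): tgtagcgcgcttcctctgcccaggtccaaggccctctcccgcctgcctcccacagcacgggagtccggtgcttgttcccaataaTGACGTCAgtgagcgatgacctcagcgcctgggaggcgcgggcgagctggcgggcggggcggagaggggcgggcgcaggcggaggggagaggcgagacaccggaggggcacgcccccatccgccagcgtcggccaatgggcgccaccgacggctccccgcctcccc
Epha2 (chr4:141300971-141301220, plus strand): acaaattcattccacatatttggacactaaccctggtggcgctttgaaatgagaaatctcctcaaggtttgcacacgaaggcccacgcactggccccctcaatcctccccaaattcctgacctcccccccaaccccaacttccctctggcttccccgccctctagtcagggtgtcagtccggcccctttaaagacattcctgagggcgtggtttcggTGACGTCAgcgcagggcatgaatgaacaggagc
Fos (chr12:85473640-85473889, plus strand): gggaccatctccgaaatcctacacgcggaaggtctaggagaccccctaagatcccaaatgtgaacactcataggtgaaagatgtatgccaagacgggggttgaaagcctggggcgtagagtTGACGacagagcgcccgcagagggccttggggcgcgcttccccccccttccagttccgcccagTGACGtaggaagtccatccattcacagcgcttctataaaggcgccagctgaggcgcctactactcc
Nr4a1 (chr15:101266596-101266845, plus strand): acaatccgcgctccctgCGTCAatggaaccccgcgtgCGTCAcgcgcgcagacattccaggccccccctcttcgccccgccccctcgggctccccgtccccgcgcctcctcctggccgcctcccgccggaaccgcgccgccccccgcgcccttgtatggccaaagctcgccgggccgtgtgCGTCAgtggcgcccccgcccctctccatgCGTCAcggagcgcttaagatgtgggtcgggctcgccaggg
Egr2 (chr10:67537619-67537868, plus strand): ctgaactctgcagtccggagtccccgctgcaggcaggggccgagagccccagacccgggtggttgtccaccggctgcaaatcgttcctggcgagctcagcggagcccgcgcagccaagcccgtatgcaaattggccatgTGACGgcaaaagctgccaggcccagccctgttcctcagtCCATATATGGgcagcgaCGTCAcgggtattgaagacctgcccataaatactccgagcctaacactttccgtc
Per1 (chr11:69098699-69098948, plus strand): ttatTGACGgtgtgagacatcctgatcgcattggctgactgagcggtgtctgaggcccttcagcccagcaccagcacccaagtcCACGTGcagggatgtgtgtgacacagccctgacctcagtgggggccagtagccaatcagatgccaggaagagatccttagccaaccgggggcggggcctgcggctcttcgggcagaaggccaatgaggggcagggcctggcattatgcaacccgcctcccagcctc
The full CRE was found in 2 of the 22 windows, those of Btg2 (its first base at -166 from the start) and Epha2 (-33). It was found in 1.79% of 32851 promoter windows of the same length. The core, which the full CRE contains on both strands, was found in 13 of the 22 windows, against 20.8% of all windows. These windows belonged to 10 of the 13 genes, but a gene with several windows had more chances of a match. Some windows also overlap and hold the same sites, as in Egr2, so neither count compares directly with the share of all windows. Nr4a1 had 4 cores and Fos had 2. A CArG box was found in 1 gene, Egr2, in 4 of its overlapping or neighbouring windows (at -72 in the one printed), against 1.63% of all windows. The E-box was found for Per1 (-166 in the window printed) and in another window of Egr2, against 7.15% of all windows. The D-box (TTATGTAA) and the glucocorticoid response element were found in 0 of the 22 windows, Tsc22d3 and Per1 included, against 0.938% and 0.475% of all windows. These matches describe letters in the windows. Binding was not measured.

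Beyond the immediate early list, 9 other genes rose. Hes1, a transcriptional repressor and known target of Notch signalling, stood at 10.77 to 11.32 at 16 h (median 10.90) and at 9.30 to 10.21 at 1 h (median 9.77). The hours did not overlap, and the difference was 1.16 ± 0.16, or 2.23-fold, with a limma adjusted p of 0.000196. Bhlhe40 (DEC1), a repressor that acts on E-boxes and in the clock, stood at 11.62 to 12.19 at 16 h (median 11.89) and at 10.45 to 11.54 at 1 h (median 10.79), again without overlap. Its difference was 0.94 ± 0.18, with a limma adjusted p of 0.0156. Epha2, a receptor tyrosine kinase for ephrin-A ligands, lay at 10.76 to 11.30 at 16 h (median 11.01) and at 9.93 to 10.69 at 1 h (median 10.50). It was the 7th called gene whose hours did not overlap, with a difference of 0.59 ± 0.11 and a limma adjusted p of 0.016.

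The secreted factors that rose were Il1b, Lif and Artn. Il1b, the inflammatory cytokine released after inflammasome activation, lay at 8.65 to 10.28 at 16 h (median 9.51) and at 7.77 to 9.16 at 1 h (median 8.43), with 2 tumours at 16 h (8.65 and 8.83) below the highest at 1 h. Its difference was 1.10 ± 0.22 (2.14-fold, limma adjusted p = 0.0264). Lif, a cytokine of the interleukin-6 family, lay at 8.71 to 9.26 at 16 h (median 9.0) and at 7.85 to 8.81 at 1 h (median 8.43). Its difference was 0.66 ± 0.13 (limma adjusted p = 0.0236). Artn, a ligand of the GDNF family, lay at 8.52 to 9.45 at 16 h (median 8.98) and at 7.71 to 8.66 at 1 h (median 8.28). Its difference was 0.72 ± 0.13 (limma adjusted p = 0.00462). In each of these 3 genes the hours overlapped by a few tumours only at their inner ends.

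The remaining genes that rose were Foxc2, Arrdc3 and Arl4c. Foxc2, a forkhead transcription factor of mesenchymal and lymphatic cells, had a difference of 1.02 ± 0.18 (2.03-fold, limma adjusted p = 0.00462), with levels of 8.95 to 10.31 at 16 h and 7.98 to 9.06 at 1 h. Arrdc3, an arrestin family adaptor, had a difference of 0.94 ± 0.20 (limma adjusted p = 0.04), with levels of 9.27 to 10.45 at 16 h and 8.08 to 9.71 at 1 h. Arl4c, a small GTPase, had a difference of 0.45 ± 0.10 (limma adjusted p = 0.0471), the smallest among the genes that rose, with levels of 12.02 to 12.71 at 16 h and 11.58 to 12.39 at 1 h. Calls near the threshold depended on single tumours. Leaving out each of the 18 tumours in turn, Lif passed in 6, Il1b in 7, Arrdc3 in 5 and Arl4c in 4 of 18 fits. The largest limma adjusted p-values in those fits were 0.0831 for Lif and 0.114 for Il1b (without day 1 1 h replicate 1 and day 1 16 h replicate 1), 0.154 for Arrdc3 (without day 7 16 h replicate 1) and 0.169 for Arl4c (without day 7 1 h replicate 2). Epha2, Bhlhe40 and Egr2 passed in 15 of 18 each, and each of them failed without day 7 1 h replicate 2 (limma adjusted p of 0.0667, 0.0552 and 0.0667). Egr2 also failed without day 1 16 h replicate 1 (0.0626) or day 7 16 h replicate 1 (0.0538), Bhlhe40 without day 7 1 h replicate 3 (0.0518) or day 14 1 h replicate 1 (0.053), and Epha2 without day 14 1 h replicate 1 (0.0572) or day 14 16 h replicate 1 (0.0573).

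Of the genes that fell, Tsc22d3 (GILZ, ENSMUSG00000031431, chromosome X, 140539528 to 140600659), a leucine zipper protein that is a classical glucocorticoid target, lay at 9.49 to 10.21 at 16 h (median 9.77) and at 10.06 to 11.54 at 1 h (median 10.62). Its highest tumour at 16 h, day 14 replicate 1, was above the lowest at 1 h, day 1 replicate 3, and the other tumours of the hours were apart. Tsc22d3 fell by 0.99 on the log2 scale (SE 0.15, 1.99-fold, limma adjusted p = 0.000393). Per1 (ENSMUSG00000020893, chromosome 11, 69095217 to 69109960), a repressor of the clock that is also induced directly by glucocorticoid, lay at 9.33 to 11.25 at 16 h (median 9.71) and at 10.45 to 11.70 at 1 h (median 10.93). The tumour at 11.25 was again day 14 16 h replicate 1, and the other 8 tumours at 16 h lay at or below 10.35, under the lowest at 1 h. Per1 fell by 1.13 (SE 0.17, 2.19-fold, limma adjusted p = 0.000729). Sla, an adaptor that dampens antigen receptor signalling in lymphocytes, lay at 8.49 to 9.44 at 16 h (median 9.02) and at 9.20 to 10.06 at 1 h (median 9.70). Sla fell by 0.57 (SE 0.11, limma adjusted p = 0.0224), and it passed in 10 of the 18 fits with 1 tumour left out, with a largest adjusted p of 0.0773 without day 7 16 h replicate 3.

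The other known glucocorticoid-induced genes gave 0 calls. Over all tested genes 0.114% were called and 54.6% lay above 0. Of 16 tested, 0 rose, 2 fell and 14 did not pass, 8 lay above 0, and the list median was 0.04. Fkbp5, a chaperone of the glucocorticoid receptor, had a difference of -0.45 ± 0.13 (limma adjusted p = 0.42), with levels of 11.05 to 11.67 at 16 h and 11.42 to 12.28 at 1 h. Pdk4, a kinase that restrains pyruvate oxidation, had the lowest value of the list, -2.04 ± 0.62 (limma adjusted p = 0.438). Pdk4 is also abundant in muscle, whose summed markers had a lower median at 16 h in these tumours, and the part of muscle in its value was not tested. In the other direction Lcn2, also on the neutrophil list, had the highest value, 1.03 ± 0.39 (limma adjusted p = 0.663). On that side also lay Ddit4, an inhibitor of mTOR signalling, at 0.78 ± 0.19 (limma adjusted p = 0.177), and Dusp1 at the value given above. Errfi1, an inhibitor of EGF receptors, lay at 0.51 ± 0.15 (limma adjusted p = 0.415).

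Of 22 clock genes tested, Bhlhe40 rose, Per1 fell and 20 did not pass, and the list median was -0.03. Of all tested genes 0.114% were called. Above 0 lay 10 of the 22, against 54.6% of all tested genes. The output regulator Dbp had a difference of -0.79 ± 0.27 (limma adjusted p = 0.526), with levels of 6.97 to 9.33 at 16 h and 7.49 to 9.68 at 1 h. The repressor Nr1d1 (REV-ERB alpha) had a difference of -0.53 ± 0.18 (limma adjusted p = 0.518), and the activator Arntl (BMAL1), which Nr1d1 represses, of 0.28 ± 0.13 (limma adjusted p = 0.748). Cry1 had a difference of 0.35 ± 0.21 and Per2 of -0.13 ± 0.24, neither of which passed. At 8 h Dbp had a median of 10.49, against 7.81 at 16 h and 8.50 at 1 h. In the same order the medians were 10.85, 9.37 and 10.11 for Nr1d1, 7.69, 9.14 and 8.81 for Arntl, and 9.59, 8.80 and 8.73 for Per2. Cry1 had its 8 h median (7.54) between those at 16 h (7.69) and 1 h (7.45). These 8 h levels are given side by side and were not tested here.

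Levels at 0 h and 8 h place the 16 h and 1 h values of the called genes. Fos had medians of 8.99 in vehicle tumours at 0 h (7.90 to 9.58), 8.48 in BXCL701 tumours at 0 h (8.31 to 8.79), 8.68 at 1 h, 9.48 at 8 h (8.60 to 13.59) and 10.24 at 16 h. Every tumour at 16 h thus had a higher Fos value than any vehicle or BXCL701 tumour at 0 h. The lowest at 16 h was only just above the highest vehicle tumour (9.58), and this difference was not tested. Egr1 at 16 h (11.89 to 13.26) overlapped the vehicle tumours (10.47 to 12.34) but lay above the 6 BXCL701 tumours at 0 h (10.98 to 11.63). The 8 h tumours were divided by day, and the 3 highest values of Fos at 8 h were those of day 7, at 11.16 to 13.59, as the plot of levels by hour shows.

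Bhlhe40, Artn, Epha2, Arl4c and Arrdc3 also rose. For these genes the 16 h median lay inside the range of the vehicle tumours at 0 h, and the 1 h median was the lowest of the 5. Bhlhe40 had medians of 11.69 in vehicle tumours at 0 h, 11.48 in BXCL701 tumours at 0 h, 10.79 at 1 h, 12.01 at 8 h and 11.89 at 16 h. Artn had medians of 8.99, 8.86, 8.28, 8.52 and 8.98 in the same order, Epha2 of 10.93, 10.90, 10.50, 10.59 and 11.01, and Arl4c of 12.54, 12.30, 12.03, 12.22 and 12.46. Arrdc3 had medians of 9.44, 9.63, 8.69, 9.95 and 9.86. For Artn, Epha2 and Arl4c the 8 h median was the next lowest, and for Bhlhe40 and Arrdc3 it was the highest. Hes1 had medians of 10.47 in vehicle tumours, 10.38 in BXCL701 tumours at 0 h, 9.77 at 1 h, 10.69 at 8 h and 10.90 at 16 h.

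For Tsc22d3 and Per1 the 1 h and 8 h medians were the highest of the hours. Tsc22d3 had medians of 9.69 in vehicle tumours at 0 h, 9.85 in BXCL701 tumours at 0 h, 10.62 at 1 h, 11.07 at 8 h and 9.77 at 16 h. The 16 h tumours (9.49 to 10.21) lay inside the vehicle range (9.42 to 10.31), and none of the 8 h tumours (10.33 to 11.74) did. Per1 had medians of 9.96, 10.16, 10.93, 11.44 and 9.71 in the same order. Sla had medians of 8.95 in vehicle tumours, 9.23 in BXCL701 tumours at 0 h, 9.70 at 1 h, 9.31 at 8 h and 9.02 at 16 h. The 0 h groups have no BXCL701 tumours on day 1, and none of these differences from 0 h or 8 h was tested.

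**Figure D3:**
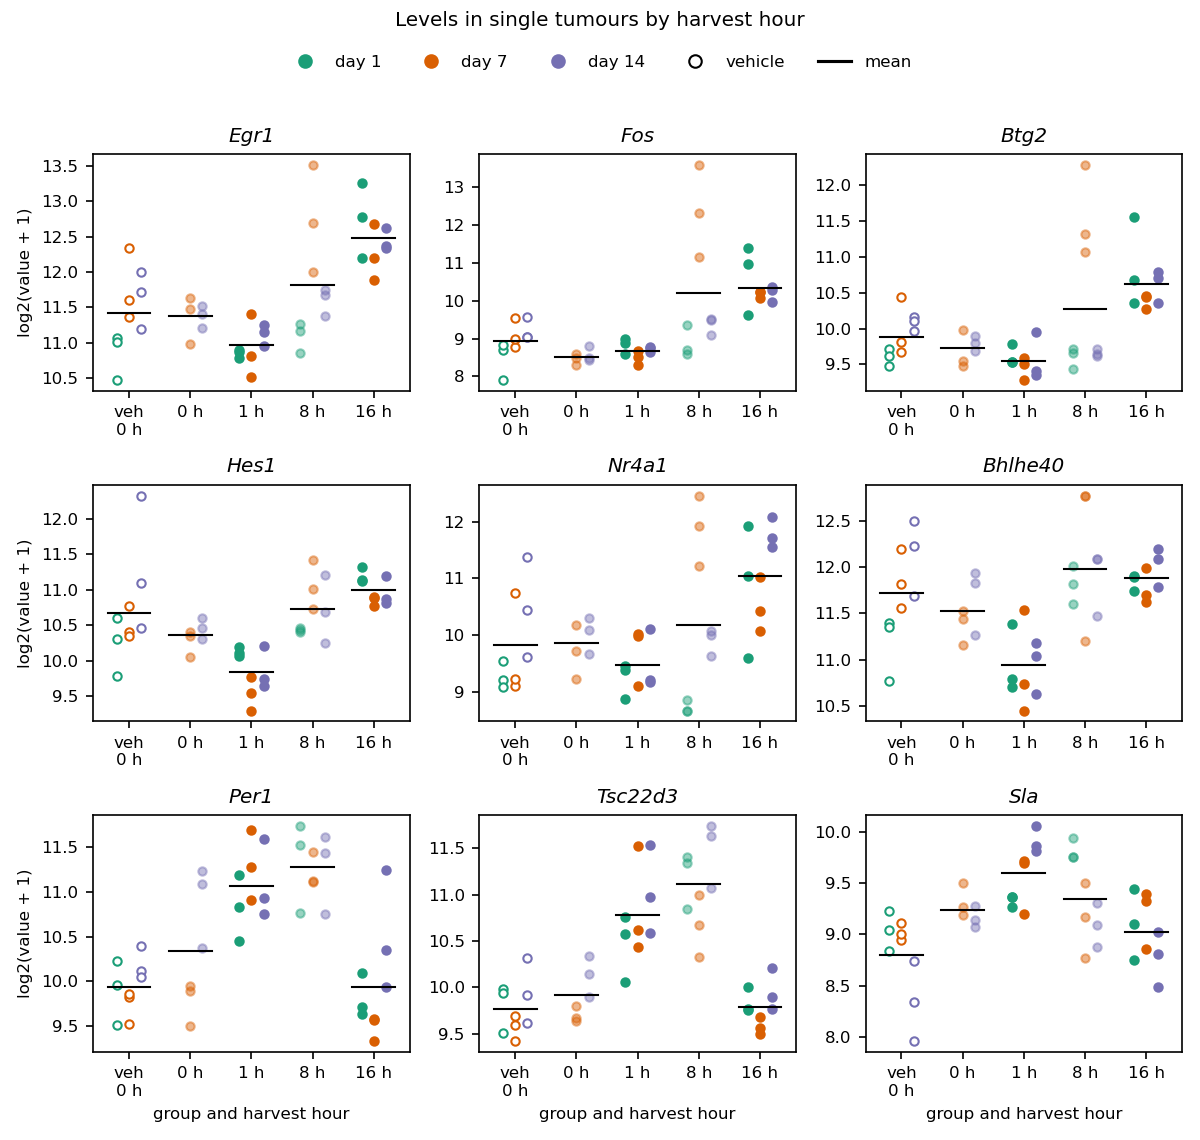
Levels of 9 genes in single tumours on the log2(value + 1) scale (vertical) by group and harvest hour (horizontal: vehicle at 0 h, then BXCL701 at 0, 1, 8 and 16 h), with colours for days 1, 7 and 14, open circles for vehicle and a line at the mean over days. Tumours at 1 h and 16 h are drawn solid: the 16 h points of Egr1, Fos, Btg2, Hes1 and Bhlhe40 all lie above the 1 h points, and Tsc22d3 at 16 h lies near vehicle while 1 h and 8 h lie higher.

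Within single days, 3 tumours against 3, 1 gene passed on each day, 0.00602% of those tested. On day 1 it was Egr1, at 1.89 ± 0.30 (limma adjusted p = 0.00883), with tumours of 12.19 to 13.26 at 16 h and 10.78 to 10.89 at 1 h. On day 7 it was Per1, which fell by 1.80 (SE 0.30, limma adjusted p = 0.019), with tumours of 9.33 to 9.58 at 16 h and 10.91 to 11.70 at 1 h. On day 14 it was Sla, which fell by 1.14 (SE 0.20, limma adjusted p = 0.0409), with tumours of 8.49 to 9.02 at 16 h and 9.82 to 10.06 at 1 h. Each of these single-day calls was lost when certain single tumours were left out, and the counts then ranged from 0 to 3 on day 1, 0 to 2 on day 7 and 0 to 2 on day 14.

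On single days Fos had differences of 1.84, 1.68 and 1.48 on days 1, 7 and 14, and Hes1 of 1.07, 1.32 and 1.09. Nr4a1 had differences of 1.61, 0.81 and 2.29, Per1 of -1.01, -1.80 and -0.58, and Sla of -0.24, -0.34 and -1.14. The test of whether the difference changed between days (moderated F test in limma) passed for 0 genes, with 822 at an unadjusted p under 0.05, and the smallest adjusted p among the 19 called genes was 0.73. The smallest adjusted p of that test, 0.0588, was shared by the endocytic receptor Lrp1 and the dynein heavy chain Dync1h1. Lrp1 had differences of 0.68 on day 1, -0.80 on day 7 and 0.24 on day 14, and Dync1h1 of 0.63, -0.71 and 0.09. Both have long transcripts, with 17717 and 15658 exonic bases. Levels of each gene relative to its mean over all 42 libraries were set against transcript length in each library. The slope ran from -0.127 to 0.169 at 16 h and from -0.214 to 0.165 at 1 h. With that slope as a covariate the test of change between days passed for 5 genes. The part of transcript length in the differences of Lrp1 and Dync1h1 was not tested.

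**Figure D4:**
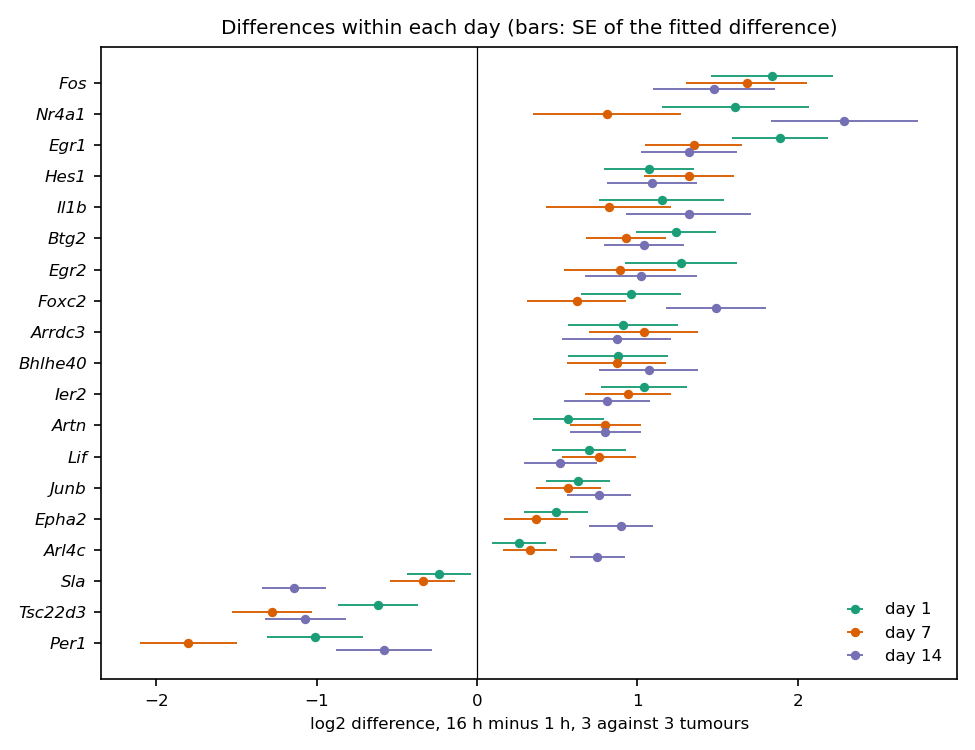
Log2 difference between 16 h and 1 h (horizontal) for the 19 called genes on days 1, 7 and 14, each from 3 against 3 tumours, with bars for the SE of the fitted difference. All 3 points of each gene lie on the same side of 0, with the days farthest apart for Nr4a1 and Per1. The genes were called on the mean of these 3 differences.

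Over all tested genes, the 9 tumours at 16 h lay entirely above the 9 at 1 h for 10 genes and entirely below for 2. Of the 10, 7 were the called genes named above: Egr1, Fos, Btg2, Hes1, Ier2, Bhlhe40 and Epha2. The 2 lower genes, chosen here after their values were seen, were the aspartate aminotransferase Got1 (-0.35 ± 0.09, limma adjusted p = 0.287) and the glucosamine-6-phosphate deaminase Gnpda1 (-0.23 ± 0.07, limma adjusted p = 0.49). Neither passed the test.

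The transcripts of the drug's targets gave 0 calls among 8 dipeptidyl peptidases and relatives tested. Over all tested genes 0.114% were called. A short list with 0 calls, here and below, therefore does not show that its genes were unchanged. Dpp4 had a difference of -0.28 ± 0.27, Dpp8 of 0.08 ± 0.18, Dpp9 of -0.08 ± 0.09 and Fap, a marker of activated fibroblasts, of -0.91 ± 0.43 (limma adjusted p = 0.748). Fap lay at 4.48 to 8.02 at 16 h and 6.88 to 8.42 at 1 h.

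Of 12 genes of the inflammasome and pyroptosis, Il1b rose and 11 did not pass, with a list median of 0.12. For this list and the 2 that follow, the share called over all tested genes was 0.114%. Aim2, a DNA sensor, had a difference of 0.29 ± 0.11 (limma adjusted p = 0.706), Il18 of 0.24 ± 0.13 and Casp1 of 0.24 ± 0.16. Il1b was also the 1 of 13 NF-kB targets that rose. Of 13 cytokines that recruit neutrophils, 0 passed, though several had wide differences: Il1a 1.70 ± 0.63, the chemokine Cxcl1 1.24 ± 0.42, Il6 0.82 ± 0.32 and Cxcl2 0.67 ± 0.22, with limma adjusted p-values of 0.642, 0.526, 0.702 and 0.517. Csf3, the neutrophil growth factor, was near the lower end of detection at both hours (0.00 to 3.03 at 16 h and 0.00 to 2.98 at 1 h).

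Neutrophil marker genes gave 0 calls, while 0.114% of all tested genes were called and 54.6% lay above 0. Of 15 tested, 11 lay above 0 and the median was 0.26, and the medians on days 1, 7 and 14 were 1.09, 0.04 and -0.11. S100a9, a calcium-binding protein abundant in neutrophils, had a difference of 0.85 ± 0.21 (limma adjusted p = 0.172), made up of 1.48, 1.02 and 0.06 on the 3 days, and S100a8 of 0.77 ± 0.21 (limma adjusted p = 0.282). The summed neutrophil list was 7150 to 11800 at 16 h (median 8150) and 5690 to 10700 at 1 h (median 7950). Its part in the value of Il1b was not tested.

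Interferon and antigen presentation genes gave 0 calls, against 0.114% of all tested genes. Their list medians had opposite signs on day 1 and day 14. Of 20 genes of the interferon gamma response 0 passed, and the list medians were -0.77 on day 1, 0.23 on day 7 and 1.12 on day 14. The chemokines Cxcl9 and Cxcl10, which draw T cells through CXCR3, had differences of -1.51, 0.18 and 1.32, and of -1.17, 0.42 and 1.06, on days 1, 7 and 14. The adjusted p for a change of their difference between days was 0.732 for both (moderated F test in limma). Class I and class II presentation lists (10 and 8 genes) had medians of 0.02 and -0.03 over the 3 days, of -0.54 and -0.95 on day 1 and of 0.52 and 0.72 on day 14. On day 1 the tumour of 16 h replicate 3 was the lowest of the 9 at 16 h for Cxcl9 (9.33), Gbp5 (7.53) and Psmb9 (9.0).

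Lymphocyte markers gave 0 calls, while 0.114% of all tested genes were called and 54.6% lay above 0. Of 18 T cell genes 8 lay above 0, with a median of -0.01, and Cd8a had a difference of -0.37 ± 0.27. Of 12 NK cell genes 10 lay below 0, with a median of -0.37, and Klra8, an activating Ly49 receptor, had a difference of -1.02 ± 0.42 (limma adjusted p = 0.726), while Ncr1 had one of 0.18 ± 0.43. Sla, which fell, is expressed in lymphocytes and myeloid cells. The summed T cell list was 2080 to 4430 at 16 h and 1760 to 3960 at 1 h, and the summed macrophage list 45800 to 68400 at 16 h (median 51400) and 53400 to 95200 at 1 h (median 62300). The part of these cells in the fall of Sla was not tested.

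Stress programmes also gave 0 calls, against 0.114% of all tested genes. Of 13 heat shock genes 10 lay below 0 with a median of -0.18, and the chaperones Hspa8 and Dnajb1 had differences of -0.23 ± 0.09 and -0.33 ± 0.11. All 12 cold-inducible and RNA-binding genes lay above 0, with a median of 0.13, led by the splicing factor Srsf5 (0.64 ± 0.18, limma adjusted p = 0.34) and the cold-inducible protein Cirbp (0.48 ± 0.14, limma adjusted p = 0.412). Over all tested genes 54.6% lay above 0. Of 16 hypoxia and glycolysis genes 13 lay above 0, with medians of -0.27, 0.29 and 0.59 on days 1, 7 and 14, and the prolyl hydroxylase Egln3 had a difference of 0.83 ± 0.26 (limma adjusted p = 0.49). Lists for the unfolded protein response, p53, NRF2, cholesterol synthesis and proliferation had medians between -0.05 and 0.11.

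The widest list median was that of skeletal muscle: all 14 genes lay below 0, with a median of -2.65, and 0 passed. Mylpf, a fast myosin light chain, had a difference of -2.65 ± 1.12 (limma adjusted p = 0.729), with levels of 4.06 to 11.95 at 16 h and 6.09 to 14.39 at 1 h. Keratinocyte genes had a median of 1.17 with all 12 above 0, against 54.6% of all tested genes, and again 0 passed. Krt5, a keratin of basal skin cells, lay at 2.82 to 12.22 at 16 h and at 0.00 to 12.23 at 1 h. At 16 h 3 tumours stood at 10.61, 11.74 and 12.22 and the other 6 at or below 5.29, and at 1 h 1 tumour stood at 12.23 and the other 8 at or below 5.75. Epithelial genes of the carcinoma list had a median of 0.04, fibroblast genes of -0.12 and endothelial genes of -0.30, with 0 calls in each.

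The called genes were also fitted without the 3 tumours of highest muscle sum, and 9 of the 19 passed, with 7 higher and 2 lower. The 10 that did not pass there kept their direction, with differences of 0.65 for Junb (0.65 with all tumours), 0.63 for Lif (0.66), 0.87 for Bhlhe40 (0.94), 0.96 for Foxc2 (1.02) and 0.34 for Arl4c (0.45). With the mean levels of the muscle, keratinocyte and adipocyte lists as covariates 10 passed, 7 higher and 3 lower, and among those that did not, Junb had a difference of 0.66 and Egr2 of 0.74 (1.06 without covariates). Egr1, Fos, Btg2 and Hes1 passed in both and in all 31 alternative fits, with differences of 1.31 to 1.62, 1.54 to 1.84, 0.96 to 1.16 and 1.06 to 1.24. Tsc22d3 passed in 30 and Per1 in 29 of the 31. Both lost the call without day 7, with limma adjusted p-values of 0.0584 and 0.279. Without day 14 the calls of Nr4a1 (0.558) and Foxc2 (0.676) were among those lost. Of the other called genes, Ier2 passed in 29, Nr4a1 in 28, Artn and Foxc2 in 27, Junb in 26, Epha2 in 23, Bhlhe40 in 22, Egr2 in 21 and Sla in 19 of the 31, and Lif, Il1b, Arrdc3 and Arl4c in 13, 12, 9 and 7.

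**Figure D5:**
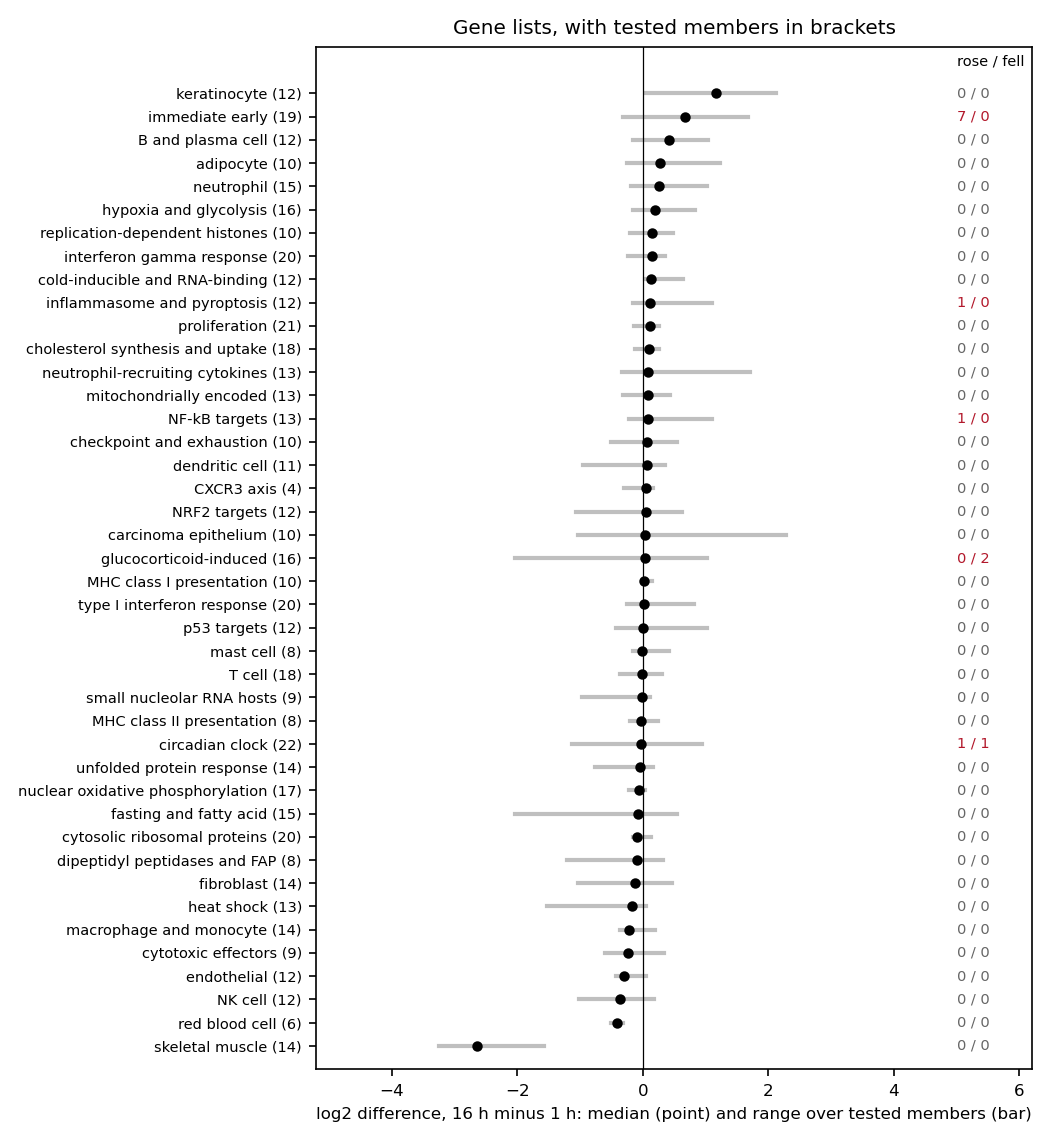
Median (point) and range (bar) of the log2 difference between 16 h and 1 h over the tested members of each gene list, ordered by the median, with the number of tested members in brackets and the numbers that rose and fell at the right. The immediate early list has 7 members that rose, and the skeletal muscle list lies farthest from 0 with 0 members past the test.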

How the data were processed

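RNA was sequenced from 42 subcutaneous Pan02 tumours in 14 groups of 3 mice. Replicate numbers only name tumours within a group. Trimming with Trimmomatic 0.36, alignment software Bowtie 0.12.9 and a GRCm38 genome are named per the submitters' processing notes. No source used here names the quantifier, the annotation or the scaling. The authors labelled the deposited gene values as counts, but 98.7% are not whole numbers. They were read as signal (estimated reads that the authors had scaled per library), so no test on raw reads could be run. Deposited log2 FPKM values of the same tumours were an alternative, and another deposited copy was identical (largest difference 0).

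A gene was tested if 3 or more libraries reached a value of 10, which 16613 of 47729 did. Values were transformed as log2(value + 1), which understates the change of low genes. With limma 3.58.1 in R 4.3.3 (files read with data.table, version 1.17.8), one coefficient per group was fitted to all 42 libraries with an intensity trend and robust spread, leaving 28 residual degrees of freedom. The contrast was the mean of the 3 within-day differences. Adjustment was by Benjamini-Hochberg over all 16613 genes, with a threshold of 0.05. A moderated F test asked whether the difference changed between days.

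Gene positions and exonic lengths came from GENCODE M21 (47310 of the 47729 identifiers found) and promoters from RefSeq. The transcript-length slope of each library used 11491 genes averaging 100 or more. It was fitted to their levels, relative to each gene's mean over all 42 libraries, on log2 exonic length. The procedure was tested on simulated data. The comparison, the 43 gene lists and the tests were chosen with earlier results of these data known. The rule for named genes took, per direction, the 10 called genes of smallest p-value, up to 4 members of each list, all clock genes (1 is not reported here), 11 fixed genes, the 3 smallest p-values per direction on single days and the 5 smallest of the test between days. The remaining called genes, Got1, Gnpda1 and further members of the 3 lists drawn member by member were added after their values were seen. Alternatives were other scaling factors, no filter, the 18 libraries alone, the FPKM values, a pseudocount of 5, tissue covariates, library weights, a length covariate and leaving out each tumour. Leaving out a day, the 3 tumours of highest muscle sum or the 4 of extreme length slope was chosen after seeing the data.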

Additional observations from a re-analysis of the deposited data

Results flagged for a closer look

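Among 460 pairs of a named gene and an hour, 33 had a tumour whose gap to its nearest neighbour, as a share of the range of the 9 tumours, was above 0.493. Chance gives about 1 in 20 such pairs for 9 independent values from one normal distribution. Here the tumours come from 3 days and the named genes share tumours, so the rate for these pairs is not known.

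At 16 h, day 1 replicate 3 was the lowest tumour for 7 genes of interferon, antigen processing and lymphocyte function, with gaps of 0.692 for Cxcl9, 0.652 for Gbp5, 0.622 for Cd274, 0.54 for Casp1, 0.537 for Cxcl10, 0.535 for Psmb9 and 0.518 for Gzmk. Day 1 16 h replicate 1 was the highest tumour for Ier2 (0.635) and Btg2 (0.599). Day 14 16 h replicate 1 was the highest for the clock output genes Tef (0.566) and Dbp (0.505) and the lowest for Kit (0.548). Day 14 16 h replicate 2 was the highest for Mki67 (0.507) and the lowest for mt-Co2 (0.599) and Snhg8 (0.511). Day 7 16 h replicate 1 was the lowest for Snhg18 (0.515) and Hspb1 (0.494), and day 14 16 h replicate 3 was the lowest for Cela1 (0.518).

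At 1 h, day 14 replicate 1, the tumour with the highest muscle sum, was the highest for Ucp3 (0.657), Klf15 (0.554), Lipe (0.548), Rcsd1 (0.517), Pnpla2 (0.504) and Tnni2 (0.494). Day 7 1 h replicate 1 was the lowest for the muscle genes Actn3 (0.552) and Mylpf (0.539) and the highest for Vcam1 (0.549) and Egr2 (0.523). Day 1 1 h replicate 2 was the highest for the keratins Krt15 (0.569) and Krt5 (0.529). The lowest tumours for Cxcr3 (0.584), Insig1 (0.593) and Ciart (0.514) were day 7 1 h replicate 2, day 7 1 h replicate 3 and day 1 1 h replicate 1.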

How the results depend on the processing

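No paired analysis was possible because the labels give no replicate numbers and each library came from a separate animal. Against 19 calls over the 3 days, there were 18 with median-of-ratios factors (18 of them among the 19), 17 with no filter (16 among the 19), 19 with the FPKM table (17 among the 19, Arl4c and Arrdc3 lost) and 19 with a pseudocount of 5 (the same 19 genes). Calls numbered 11 with the 18 libraries alone, 10 with tissue covariates, 61 with library weights (whose estimation did not converge) and 46 with the length covariate, and the split by direction was 46 to 15 with weights and 39 to 7 with the length covariate. Without day 1, 7 or 14 they numbered 8, 9 and 7, without the 3 tumours of highest muscle sum 9, and without the 4 of extreme length slope 10. Leaving out 1 tumour gave 11 to 20, with 11 without day 7 1 h replicate 2. No called gene changed direction in any of the 31 alternatives.

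The single-day counts of 1 rested on few tumours. Day 1 gave 10 with no filter, 2 with the 18 libraries alone, 419 with weights, 2 with the length covariate, 0 without the length-slope tumours and 0 to 3 without 1 tumour. Day 7 gave 0 with no filter, tissue covariates, weights, or without the muscle or length-slope tumours, 2 with the 18 libraries alone, 30 with the length covariate and 0 to 2 without 1 tumour. Day 14 gave 10 with no filter, 5 with the FPKM table, 560 with weights, 22 with the length covariate, 0 with the 18 libraries alone or without the muscle or length-slope tumours, and 0 to 2 without 1 tumour. The test of change between days gave 4 with no filter, 1 with the 18 libraries alone, 191 with weights, 5 with the length covariate, 4 without day 14 and 0 to 3 without 1 tumour. Fewer tumours leave fewer degrees of freedom. The cause of the other changes was not tested. The read depth is unknown, so counting error of single values cannot be given.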
